A study of Mus musculus with 15 samples.

Results

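The femur of ground-housed mice with a segmental bone defect was compared with the same region of the femur of ground-housed mice without a defect, by whole-genome array. The comparison uses 8 of the 15 arrays of the series, which are the 4 titled for ground surgery (G-Surgery, replicates 1, 3, 4 and 5) and the 4 titled for ground sham (G-Sham, with the same replicate numbers), 1 array per mouse. All 8 were male C57BL/6J mice labelled as 9 weeks old, kept at normal gravity in the hardware built for flight. G-Surgery mice had a piece of the midshaft of the right femur removed, with the gap held by a needle and filled with a poly(propylene fumarate)/tricalcium phosphate graft and a collagen sponge soaked in saline, and no bone-inducing protein. G-Sham mice were unoperated, so that surgery, graft, sponge and needle differ together between the groups and cannot be told apart. Tissue was taken about a month later, as the femoral shaft without its ends, and milled whole, so that callus, cortex, marrow and any attached muscle went into one RNA extract. Femoral RNA was labelled with Cy5 and hybridised against a commercial mouse reference RNA in Cy3, and every level below is a log2 ratio of femur to reference. In such mixed tissue, fewer cells of a type and less RNA per cell cannot be told apart.

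Repair of a bone gap passes through phases that overlap. Macrophages and other myeloid cells clear debris and present antigen, mesenchymal cells lay down a fibrous and then a cartilage matrix rich in collagens, and osteoblasts replace that matrix with bone that osteoclasts remodel. An implanted polymer also draws macrophages, which fuse into foreign-body giant cells around it. The lists of genes used below follow these roles.

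A probe was tested where its Cy5 signal was well above background on at least 3 of the 8 arrays. This left 17675 of 55681 probes, and 9073 genes with a symbol, each represented by its brightest probe. Between 14309 and 20697 probes were above background on the G-Surgery arrays and between 12869 and 18300 on the G-Sham arrays, and the means of the groups differed by 1403 (exact permutation test over 70 assignments, two-sided, p = 0.514). Precision is limited by having 4 arrays in each group. Over all genes tested the median log2 fold change (G-Surgery minus G-Sham) was 0.17, and a difference is best read relative to it. The arrays lay on 3 slides, with G-Surgery 1, 4 and 5 and G-Sham 3 on the first, G-Surgery 3 and G-Sham 1 and 5 on the second, and G-Sham 4 alone on the third.

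The sham arrays were less alike than the surgery arrays. Correlations over 17656 probes lay between 0.881 and 0.922 among G-Surgery arrays and between 0.76 and 0.914 among G-Sham arrays. On the first principal component (34.3% of the variance) G-Sham 1 stood apart at -141 and G-Sham 5 lay at the other end at 90.0, with the other arrays between -28.1 and 45.2. The second component (24.2%) held the 4 G-Surgery arrays between -71.5 and -13.2 and the 4 G-Sham arrays between 14.7 and 73.5. Group membership accounted for 21.4% of the summed squares (exact permutation test over 70 assignments, one-sided, p = 0.0571), which did not pass 0.05. Without G-Sham 1 the share was 31.0% (exact permutation test over 35 assignments, one-sided, p = 0.0286, the smallest p that 35 assignments allow). With labels permuted within slides it was 21.3% (exact test over 12 assignments, p = 0.5).

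**Figure D1:**
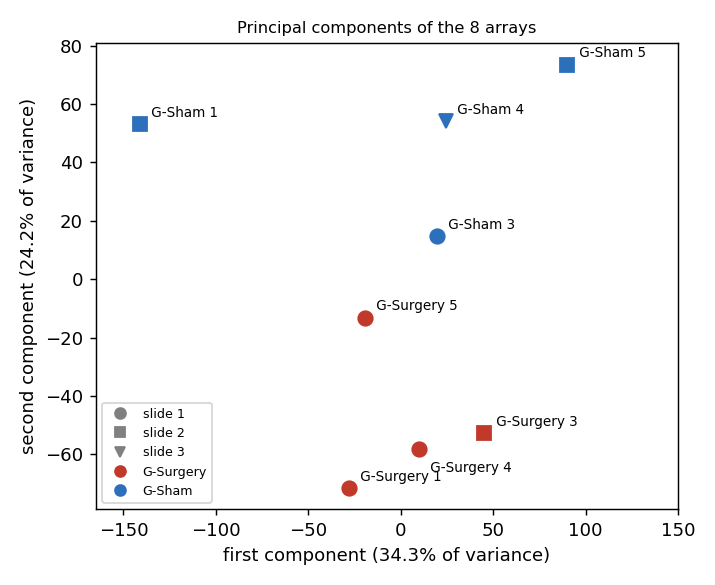
First 2 principal components of the log2 ratios of the 8 ground arrays, for probes measured on all of them. Each point is 1 array, coloured by group and shaped by slide. G-Sham 1 sits alone on the left, and the groups do not overlap on the second component.

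Genes were called at the cut-off that the study used for its own comparisons, a fold change of at least 2 with limma p at or under 0.01 before adjustment. Of the 9073 genes, 284 passed (3.13%), of which 244 were higher (2.69%) and 40 lower (0.441%) in G-Surgery. Only 2 genes reached an adjusted p of 0.05, while 1076 had p at or under 0.05 before adjustment. The 4 arrays of a group lay wholly above those of the other for 605 genes higher in G-Surgery (6.67%) and 120 genes lower (1.32%), whether or not they passed. The excess of higher genes depended on the scale. The share of passing genes that were higher was 85.9%, against 65.7% with each array centred on its median, 67.9% after a further loess and 50.6% without G-Sham 1, where 203 genes passed as lower. With slide as a block 132 genes passed, 88.6% of them higher. Without G-Surgery 1, 3 or 4 the count was 159, 175 or 171.

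H2-DMb1 and Col15a1 were the 2 genes past an adjusted p of 0.05. No gene reached it with slide as a block (smallest adjusted p from limma 0.311) or without the filter on dim probes (0.254). None did either when G-Surgery 1, 3 or 4 or G-Sham 1, 4 or 5 was left out. H2-DMb1 encodes a chain of the H2-DM molecule, which helps load peptides onto class II molecules in antigen-presenting cells. Its log2 ratio was 2.54, 3.01, 2.08 and 1.36 in G-Surgery 1, 3, 4 and 5 and -1.45, -1.92, -1.88 and -1.79 in the G-Sham arrays of the same numbers. All 4 sham arrays were below background for this probe, so that it was tested through its surgery arrays alone. The closeness of the sham values is that of readings at background, and the standard error and p below rest on it in part. The log2 fold change was 4.01 (standard error 0.37, adjusted p = 0.0407 from limma), and the Cy5 signal was at least 9.56-fold higher in G-Surgery. This bound sets the mean Cy5 level of the brighter group against that of the dimmer one, where each array of the dimmer group counts at its own signal or at the dimmest signal still above background, whichever is higher. As no dyes were swapped it is open to dye bias, like every such bound below.

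Col15a1 encodes type XV collagen, a collagen of basement membrane zones. It had log2 ratios of 4.97, 5.45, 4.44 and 4.18 in G-Surgery 1, 3, 4 and 5, and of -0.20, 1.32, -0.47 and 0.00 in the G-Sham arrays. The surgery arrays spanned little more than 1 unit and none came near the sham arrays. No sham array was above background, so that this probe too was tested through its surgery arrays alone. A ratio of exactly 0 is what the scanner software wrote where both channels were at background. The log2 fold change was 4.60 (standard error 0.45, adjusted p = 0.0407), and at least 5.65-fold as a bound.

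Among genes that passed and did not overlap, the largest difference was in a cartilage gene. Col2a1 encodes type II collagen, the main collagen of hyaline cartilage. Its log2 ratio was 1.98, 4.65, 8.06 and 5.21 in G-Surgery 1, 3, 4 and 5, against -2.64, -1.40, -0.39 and 0.22 in G-Sham. All surgery arrays were above background and no sham array was, but the surgery mice differed among themselves by 6 log2 units, with replicate 4 highest and replicate 1 lowest. The log2 fold change was 6.03 (standard error 1.18, adjusted p = 0.201), at least 30.5-fold as a bound.

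**Figure D2:**
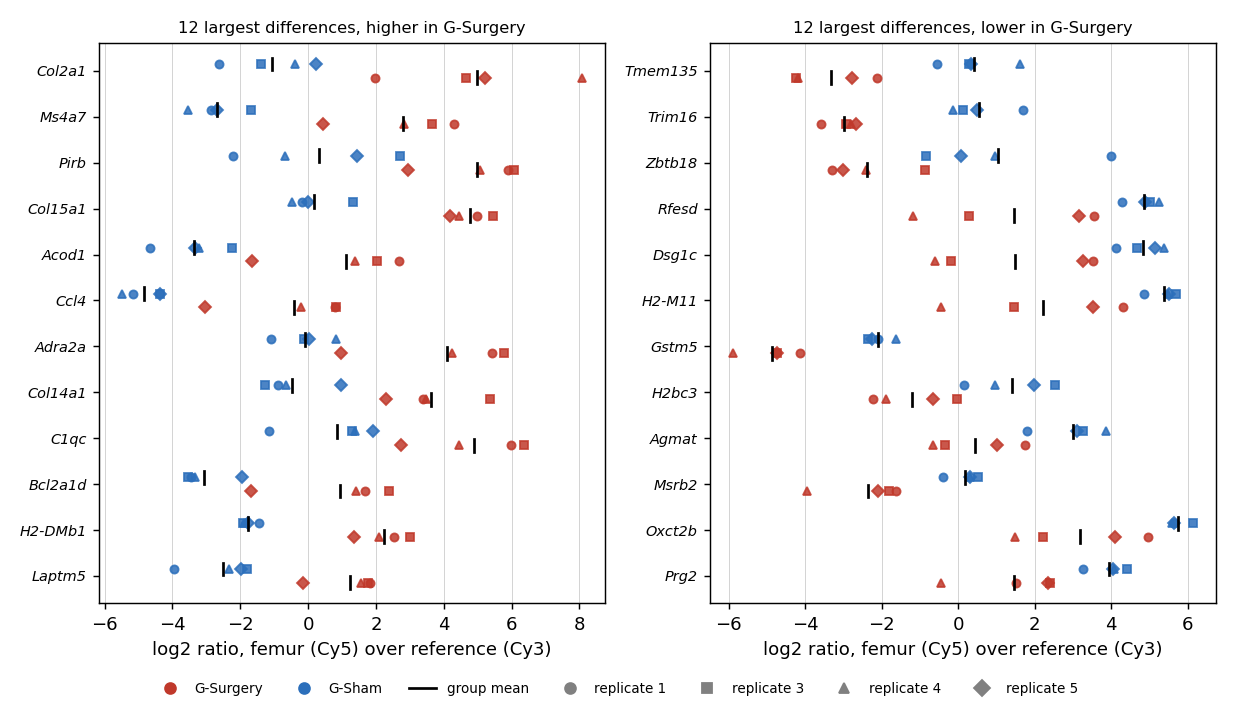
Log2 ratio of femur to reference on each of the 8 arrays for the 12 genes with the largest difference in each direction, among genes past the cut-off whose groups do not overlap. Points are arrays, with the marker giving the replicate number, and black bars are group means. In the genes higher in G-Surgery, replicate 5 is mostly the surgery array nearest to the sham arrays, and Col2a1 has the widest spread.

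Among the 12 largest increases without overlap, several others are known from myeloid or other blood cells. They were read this way after their values were seen, and as a group they were not tested. Ms4a7 marks macrophages. It had log2 ratios of 4.29, 3.65, 2.81 and 0.44 in G-Surgery 1, 3, 4 and 5, against -3.53 to -1.69 in G-Sham. Its log2 fold change was 5.49 (standard error 0.80, adjusted p = 0.134), at least 21.8-fold as a bound. Replicate 5 was the lowest of the surgery arrays by over 2 units. Pirb, an inhibitory receptor of myeloid and B cells, differed by 4.67, Acod1, which makes itaconate in activated macrophages, by 4.47, and Laptm5, a lysosomal membrane protein of blood cells, by 3.75, with its other probe at 2.46. Bcl2a1d, a survival gene of the Bcl2 family, differed by 4.01 and was above background on no sham array (at least 7.01-fold as a bound). Standard errors of these 4 lay between 0.61 and 1.11 log2 units. The remaining genes of the 12 were Ccl4, C1qc and Col14a1, which are described with their groups, and Adra2a, an adrenergic receptor, which was 0.96 in G-Surgery 5 and between 4.24 and 5.77 in the other surgery arrays (at least 5.66-fold as a bound). Of all 244 genes that passed as higher, G-Surgery 5 was the lowest of the 4 surgery arrays in 214 (87.7%), against 38.5% over all genes tested. Without that array 373 genes passed as higher and 25 genes, in either direction, had an adjusted p of at most 0.05.

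Macrophage genes formed the group with the most calls. Of 32 genes listed for macrophages and foreign-body giant cells 19 were tested. Of these, 6 rose and none fell at the cut-off, where 2.69% of all genes rose and 0.441% fell. Of the 19, 18 lay above the median of all genes. The median log2 fold change of the list was 0.87, against 0.17 over all genes. Trem2, a lipid-sensing receptor of macrophages and osteoclast precursors, had the smallest p of the list. Its log2 ratio was 2.35, 2.39, 1.80 and 0.64 in G-Surgery 1, 3, 4 and 5 and -1.75, -1.28, -2.39 and -1.71 in G-Sham, with all 8 arrays above background. The surgery mean was 1.80 ± 0.81 (SD, n = 4) and the sham mean -1.79 ± 0.46 (SD, n = 4), a difference of 3.58 (standard error 0.44, adjusted p = 0.0891).

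The other 5 of these genes were a complement component, a receptor for bacterial lipopolysaccharide and 3 lysosomal or secreted enzymes. C1qc, a chain of complement C1q made by macrophages, had log2 ratios of 5.99, 6.36, 4.44 and 2.72 in G-Surgery 1, 3, 4 and 5 and of -1.15 to 1.92 in G-Sham, higher by 4.01 (standard error 0.92, adjusted p = 0.258). The bacteriolytic enzyme Lyz1 differed by 3.20, and its sham arrays were uneven, with G-Sham 1 at -3.85 and the others between -0.25 and -0.14. The cysteine proteases Ctss and Ctsb differed by 2.38 and 1.69, and Cd14, the lipopolysaccharide co-receptor, by 1.29. For all 6 genes the surgery arrays lay wholly above the sham arrays, as they did for 214 of the 244 genes that passed as higher. Members that did not pass included Aif1 at 3.40 (adjusted p = 0.354), Cd9 at 2.53 (adjusted p = 0.363) and the receptor of macrophage colony-stimulating factor, Csf1r, at 0.82 (adjusted p = 0.344, under the fold cut-off, and -0.16 to 0.30 at its other probes). The pan-macrophage gene Cd68 was at 0.68 and the adaptor Tyrobp at 0.23. The mean log2 ratio of the 19 genes was 0.39 to 1.54 in G-Surgery and -0.78 to -0.06 in G-Sham, without overlap. Within the first slide it was higher in G-Surgery by 0.98 and within the second by 2.09. With slide as a block 2 of the 19 passed, and without G-Sham 1 and 5 3 passed. Of the fusion and alternative-activation genes listed, Gpnmb was above background on 2 surgery arrays and no sham array, and Arg1 on none, so that neither was tested.

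Genes of MHC class II, the molecules that present peptides to helper T cells, were read together after their values were seen. Of 7 such genes tested, including the invariant chain Cd74, 3 passed as higher and none as lower, where 2.69% and 0.441% of all genes did. H2-Aa, the alpha chain of H2-A, had log2 ratios of 6.48, 6.95, 6.15 and 4.40 in G-Surgery 1, 3, 4 and 5 and 3.33, 4.34, 4.01 and 3.11 in G-Sham, a difference of 2.30 (standard error 0.56, adjusted p = 0.281). Its partner, the beta chain H2-Ab1, differed by 3.55 (standard error 0.94) at its brightest probe and by 3.26 at a second probe. H2-Ab1 was at -1.65 in G-Sham 1 and at 1.77 to 2.69 in the other sham arrays, so that leaving G-Sham 1 out gave the smallest difference among the arrays left out in turn, 2.57. H2-Eb1 did not overlap between groups, though G-Surgery 5 and G-Sham 5 both rounded to 1.96, and differed by 3.08 (standard error 1.19, adjusted p = 0.408), while H2-Ob was at 1.05 and H2-Eb2 at -1.40. Cd74, which antigen-presenting cells use to chaperone class II, was at -0.43, with 0.13 to 0.50 in G-Surgery and 0.12 to 1.53 in G-Sham.

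The stretch just before the start site of class II genes is known to carry short conserved elements, among them the Y box, whose core reads GATTGG on one strand, and the X box, searched here by the letters TAGNAAC. The 3 promoters below are shown because they could be read for class II genes whose groups did not overlap. They come from RefSeq (GRCm38.p6), and each is the 120 bases upstream of the start site, 5′ to 3′ on the strand of the gene. Capitals mark GATTGG or its reverse complement and TAGNAAC, which were searched on both strands and overlap nowhere here.
H2-DMb1, chr17:34153071-34153190, plus strand: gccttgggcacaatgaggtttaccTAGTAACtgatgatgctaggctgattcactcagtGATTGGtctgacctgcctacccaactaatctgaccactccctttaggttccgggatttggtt
H2-Aa, chr17:34287824-34287943, minus strand: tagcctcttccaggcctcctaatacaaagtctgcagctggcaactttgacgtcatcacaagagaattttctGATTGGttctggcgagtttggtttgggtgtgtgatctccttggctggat
H2-Eb1, chr17:34305747-34305866, plus strand: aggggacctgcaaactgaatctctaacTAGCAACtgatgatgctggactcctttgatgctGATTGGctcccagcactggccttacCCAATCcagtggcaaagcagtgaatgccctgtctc
GATTGG begins 62, 49 and 60 bases before the start site in H2-DMb1, H2-Aa and H2-Eb1, with a reverse match 35 bases before it in H2-Eb1. TAGNAAC begins 96 bases before it in H2-DMb1 and 93 in H2-Eb1, and these letters are not in the H2-Aa window. Over all 32851 promoters in the table, 9.67% of such windows hold GATTGG and 5.06% hold TAGNAAC on either strand. H2-Eb2 and H2-Ob, which did not pass, also hold both, so that the letters do not sort the genes by their difference.

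**Figure D3:**
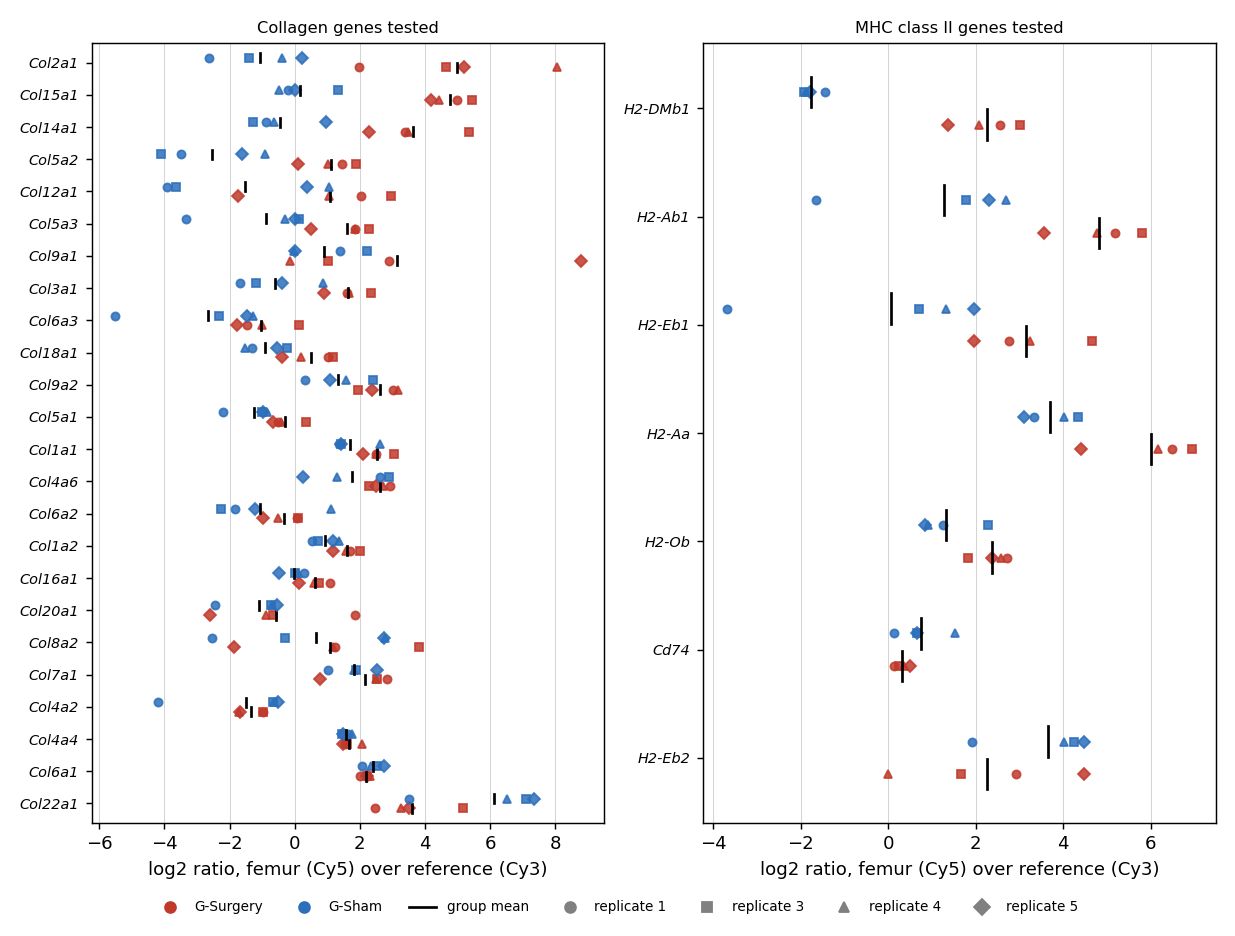
Log2 ratio of femur to reference on each array for the 24 collagen genes and the 7 MHC class II genes tested, in order of the difference between group means (black bars). The surgery arrays lie wholly above the sham arrays for 7 collagen genes and 4 class II genes, and for no gene of either family do they lie wholly below. Over all genes tested they lie wholly above for 6.67% and wholly below for 1.32%.

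Collagens gave the other large group. Of 24 collagen genes tested, taken by symbol after the values were seen, 5 passed as higher, none as lower, and 22 had a positive log2 fold change, or 20 after a further loess or median centring, which also called Col22a1 lower. Over all genes 2.69% passed as higher and 0.441% as lower, and 5699 of 9073 had a positive log2 fold change. Besides Col2a1 and Col15a1, the 5 were Col14a1, Col5a2 and Col3a1. Col14a1, a collagen that binds to the surface of fibrils in dense connective tissue, had log2 ratios of 3.39, 5.36, 3.47 and 2.29 in G-Surgery 1, 3, 4 and 5 and of -1.28 to 0.96 in G-Sham. It differed by 4.09 (standard error 0.70, adjusted p = 0.176), at least 10.8-fold as a bound. The fibril-regulating Col5a2 differed by 3.65 (standard error 0.73), with 0.11 to 1.89 in G-Surgery and -4.11 to -0.92 in G-Sham. Col3a1, the collagen of early granulation and loose tissue, was at 1.60, 2.34, 1.67 and 0.89 in G-Surgery 1, 3, 4 and 5 and at -1.67, -1.17, 0.87 and -0.39 in G-Sham. It differed by 2.22 (standard error 0.56, adjusted p = 0.297), and G-Sham 4 came close to the lowest surgery array, G-Surgery 5. Col1a1, the main collagen of bone and scar, differed less, by 0.84 (standard error 0.36, adjusted p = 0.456). Its surgery arrays were between 2.10 and 3.06 and 3 sham arrays between 1.37 and 1.41, while G-Sham 4 was at 2.61. The basement membrane and microfibril genes Col4a4 and Col6a1 were at 0.10 and -0.23. Col22a1, a collagen of muscle-tendon junctions, had the lowest value, -2.52 (adjusted p = 0.377).

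In the list for fibrous scar and wound matrix, 27 of 34 genes were tested and 4 rose, where 2.69% of all genes did. None fell, and the median was 0.74. Col14a1 and Col3a1 are 2 of the 4. Fn1, fibronectin, the adhesive glycoprotein of provisional matrix, was at -0.62, 0.12, -0.63 and -0.95 in G-Surgery 1, 3, 4 and 5 and at -1.69, -1.83, -2.28 and -2.06 in G-Sham. It differed by 1.44 (standard error 0.29, adjusted p = 0.208). Tagln, a smooth muscle and myofibroblast protein, differed by 1.22 (standard error 0.36). Other members were uneven among mice of a group. Postn, a matrix protein of periosteum and scar, ranged from 0.08 to 4.28 in G-Surgery and from -2.82 to 3.27 in G-Sham, and its 1.85 lay within that spread (standard error 1.35, adjusted p = 0.618). Lum and Thbs1 were at 2.60 (adjusted p = 0.493) and 2.05 (adjusted p = 0.476, no sham array above background, at least 3.09-fold as a bound), and Acta2, the actin of myofibroblasts, was at 0.16. The mean of the list overlapped between groups, at 0.34 to 1.84 in G-Surgery and -1.09 to 1.02 in G-Sham.

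Cartilage genes had the highest median of all 26 lists, 1.29, but few were measured. Without G-Sham 1 it was 0.95, under the 1.15 of the macrophage list. Of 29 listed, 13 were tested and 2 passed, both higher, namely Col2a1 and Matn4, where 2.69% of all genes passed as higher. Matn4, a matrilin that links collagen and proteoglycan networks, was at 4.62, 5.40, 4.20 and 2.20 in G-Surgery 1, 3, 4 and 5 and at 1.68, 0.75, 1.40 and 1.74 in G-Sham. It differed by 2.71 (standard error 0.63, adjusted p = 0.264). Acan, the large proteoglycan of cartilage, was at 2.41 to 3.63 in G-Surgery and 0.47 to 2.33 in G-Sham, without overlap, and missed the cut-off at 1.46 (adjusted p = 0.358). The lubricating proteoglycan Prg4 was at 3.18 (adjusted p = 0.363), with the 2.75 of G-Surgery 4 below the 4.04 of G-Sham 5. Comp was at 2.69 (adjusted p = 0.483). The mean of the 13 genes was 2.79 to 3.13 in G-Surgery and 0.16 to 2.0 in G-Sham. Col10a1, the collagen of hypertrophic cartilage, and Sox9, the master regulator of chondrocytes, were above background on none of the 8 arrays, and Mmp13 on 1 surgery array.

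Genes of bone-forming cells gave 3 calls. Of 30 listed for osteoblasts and bone matrix 24 were tested, of which 3 rose and none fell (median 0.50), where 2.69% and 0.441% of all genes did. Ibsp, bone sialoprotein, a protein of mineralizing matrix, was at 7.01, 4.68, 5.20 and 3.19 in G-Surgery 1, 3, 4 and 5 and at 2.43, 0.86, 1.99 and 2.40 in G-Sham. Its log2 fold change was 3.098 (standard error 0.75, adjusted p = 0.280), and 2.75 at a second probe. Serpinh1, the chaperone that collagen needs to fold, differed by 1.75 (standard error 0.36, adjusted p = 0.208) and Col5a2 is the third. Other markers of the lineage did not pass. Spp1, osteopontin, was at -0.29, Bglap, osteocalcin, at -0.44, its neighbour Bglap3 at -1.96 (adjusted p = 0.362) and the phosphatase Alpl at -0.64. Bglap, Bglap2 and Bglap3 are near copies whose probes may share targets. Runx2, the transcription factor of the osteoblast lineage, was at -0.15 (standard error 0.50), with 0.84 to 2.37 in G-Surgery and 0.32 to 2.35 in G-Sham. Sp7, which acts downstream of it, and the osteocyte genes Sost and Dmp1 were above background on none of the 8 arrays. Sost and Dmp1, which define osteocytes, were thus not detected in either group. In the osteocyte list 7 of 14 genes were tested. The membrane glycoprotein Pdpn rose by 1.37 (standard error 0.35). The receptor phosphatase Ptprz1, at -1.99 (standard error 0.51), fell, and its second probe was at -3.78.

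For osteoclasts, 14 of 24 listed genes were tested, with a median of 0.74, and 2 rose, where 2.69% of all genes did. Mitf, a transcription factor of osteoclasts and macrophages, was at 2.07, 2.53, 1.95 and 0.97 in G-Surgery 1, 3, 4 and 5 and at 0.13 to 0.59 in G-Sham, a difference of 1.56 (standard error 0.35), and of 0.82 at its other probe, under the fold cut-off. Tnfrsf11a, the receptor RANK, differed by 1.11 (standard error 0.32). The bone-resorbing enzymes Ctsk and Acp5 did not pass. Ctsk, cathepsin K, was at 4.43, 5.88, 4.99 and 3.77 in G-Surgery 1, 3, 4 and 5 and at -2.05, -1.05, 2.85 and 3.84 in G-Sham. G-Sham 5 thus lay above G-Surgery 5, and the log2 fold change of 3.87 had a standard error of 1.28 (adjusted p = 0.362). Acp5, tartrate-resistant acid phosphatase, was at 1.87 (adjusted p = 0.416), and G-Sham 5 at 3.84 lay above G-Surgery 1 at 3.76 and G-Surgery 5 at 3.45. With slide as a block, Ctsk was at 5.23 and passed. The gelatinase Mmp9 was above background on no array.

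Matrix enzymes and their inhibitors were tested for 13 of 28 listed genes, with 2 higher, where 2.69% of all genes were. Timp2, an inhibitor of metalloproteases, was at 0.62 to 1.76 in G-Surgery and -0.21 to 0.14 in G-Sham and differed by 1.32 (standard error 0.30), although its other probe was at -0.12. The membrane protease Adam10 differed by 2.25 (standard error 0.61). Timp1 was at 0.99 (adjusted p = 0.352), just short of the cut-off.

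In each signalling list 1 gene or none passed, where 3.13% of all genes did. Of the BMP and TGF-beta pathway, which drives bone induction, 23 of 44 listed genes were tested and none passed. Its median was 0.22. The largest value was that of the activin and BMP antagonist Fst, at 1.67 (adjusted p = 0.363), and Tgfb1 was at 0.13. Bmp2 was above background on 1 surgery array and Bmp7 on none. Of 23 tested Wnt genes 1 passed, the co-receptor Lrp6 at 1.49 (standard error 0.36), with 2.54 to 3.67 in G-Surgery and 1.27 to 2.44 in G-Sham. Its other probe, at 0.61, was under the fold cut-off. Of 23 tested genes of FGF, IGF, PDGF and hedgehog signalling, Fgfr1 passed at 1.18 (standard error 0.34), its second probe being at -0.48. Igf1 was at 1.30 (adjusted p = 0.501; 0.36 to 1.06 at its other probes) and the PDGF receptor Pdgfrb at 2.36 (adjusted p = 0.363). None of 16 tested genes of vessels and hypoxia passed. Vegfa, the main angiogenic factor, was at -0.26 and the endothelial gene Egfl7 at 1.14 (adjusted p = 0.381).

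Of 42 listed cytokine and chemokine genes 18 were bright enough to be tested, and 2 rose, where 2.69% of all genes did. The same share applies to the other lists of this paragraph. Ccl4, a chemokine for monocytes and T cells, was at 0.80, 0.82, -0.22 and -3.05 in G-Surgery 1, 3, 4 and 5 and at -5.48 to -4.38 in G-Sham. It differed by 4.44 (standard error 0.82, adjusted p = 0.183), at least 10.02-fold as a bound. Ccl9, a chemokine of macrophages and osteoclasts, differed by 1.40 (standard error 0.35). Il1b was at 3.06 (adjusted p = 0.363), with 2.10 to 3.83 in 3 surgery arrays, -1.90 in G-Surgery 5 and -1.82 to -1.08 in G-Sham. It was above background on 3 surgery arrays and no sham array (at least 3.26-fold as a bound). The order of its lowest values is thus one of readings at background. Cxcl12, the homing chemokine of marrow stroma, was at 0.00 (standard error 0.63). Tnf was above background on no array and Il6 on 1 sham array. Among 17 tested immediate-early genes, which respond quickly to stimulation, Fosl2, Klf6 and Klf2 rose, at 1.93, 1.37 and 2.70. Without G-Sham 1 only 1 of the 17 passed. Fosl2, an AP-1 subunit, was above background on all 4 surgery arrays and on no sham array (at least 2.9985-fold as a bound). Of 14 tested stromal progenitor genes, the surface marker Cd34 rose by 1.24 (standard error 0.28), with 0.54 to 1.35 in G-Surgery and -0.55 to 0.06 in G-Sham. In the list for muscle regeneration 1 of 13 tested genes passed, the transcription factor Runx1 at 1.97 (standard error 0.59), which is also active in blood and cartilage, while embryonic myosin, Myh3, was at 2.32 (adjusted p = 0.544). Without G-Sham 1 none of these 13 passed as higher and 2 passed as lower. Of 27 tested cell cycle genes 2 rose, the inhibitor Cdkn2a at 1.14 and the kinase Cdk2 at 1.09, whereas the proliferation marker Mki67 was at -1.17 (adjusted p = 0.394) with its other probe at 0.12.

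**Figure D4:**
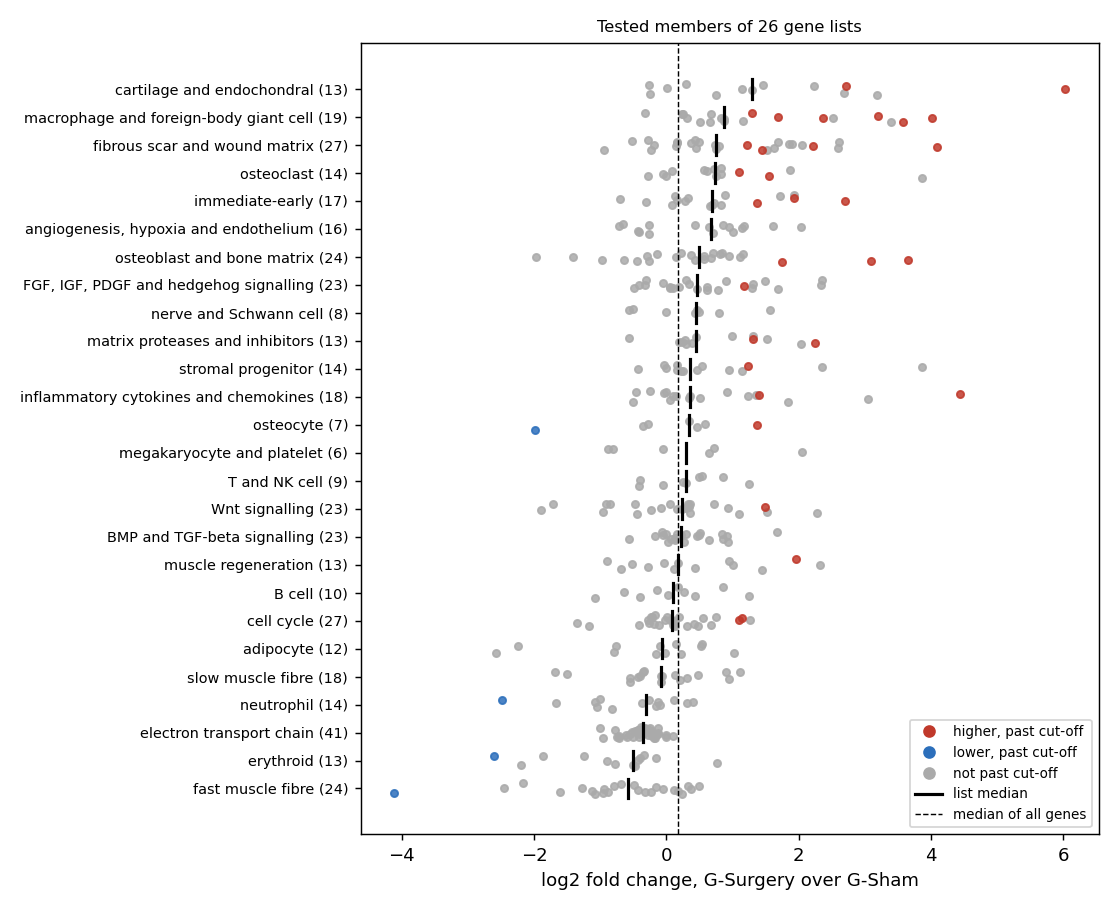
Log2 fold change (G-Surgery over G-Sham) of each tested member of 26 gene lists, with the number tested in brackets. Red and blue points passed the cut-off, the short black bar is the median of a list and the dashed line the median of all 9073 genes, 0.17. Col2a1, in the cartilage list, lies farthest to the right, and all but 2 of 41 electron transport genes lie left of 0.

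Of the 12 largest decreases among the genes that passed as lower without overlap, only Prg2 belongs to one of the lists. Another 4 of the 40 genes that passed as lower had values in or below the range of these 12, but overlapped between groups. These were Actn2 at -4.11 and Hbb-b1 at -2.61, described with their lists, and Lgalsl at -3.82 and Amhr2, the receptor of anti-Müllerian hormone, at -3.55. Trim16, a member of the tripartite motif family, was at -3.58, -2.92, -2.80 and -2.67 in G-Surgery 1, 3, 4 and 5 and at 1.70, 0.13, -0.14 and 0.49 in G-Sham. It fell by 3.54 on the log2 scale (standard error 0.43, adjusted p = 0.0891) and was at least 6.04-fold higher in G-Sham as a bound. Tmem135, a membrane protein of peroxisomes and mitochondria, was at -4.23 to -2.12 in G-Surgery and -0.54 to 1.61 in G-Sham, a log2 fold change of -3.74 (standard error 0.61). The glutathione transferase Gstm5 was at -2.78 (standard error 0.39), and above background on all 4 sham arrays and on no surgery array (at least 4.99-fold higher in G-Sham as a bound). The transcriptional repressor Zbtb18 was at -3.43, with G-Sham 1 at 4.0 and the other sham arrays between -0.85 and 0.95. The histone gene H2bc3, above background on 3 sham arrays and no surgery array, was at -2.61, at least 4.81-fold higher in G-Sham as a bound, and the methionine sulphoxide reductase Msrb2 at -2.56.

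Another 5 of these 12 genes followed much the same course over the arrays, and others came near it. Rfesd, which encodes a Rieske iron-sulphur protein, was at 3.55, 0.29, -1.18 and 3.17 in G-Surgery 1, 3, 4 and 5 and at 4.29 to 5.23 in G-Sham. Replicates 3 and 4 were thus far below the sham arrays and replicates 1 and 5 little below them. The desmoglein Dsg1c, the non-classical class I gene H2-M11, Oxct2b, a ketone body enzyme, and Agmat, an agmatinase, shared this course, with correlations among the 5 genes between 0.926 and 0.995 over the 8 arrays, which share the group difference by which they were chosen. The log2 fold changes of these 5 lay between -3.39 and -2.55. Of the rest of the 12, Tmem135, Msrb2, Gstm5 and Prg2 correlated with Rfesd by 0.913, 0.905, 0.894 and 0.855. Cpb2, which passed as lower outside the 12, did so by 0.947.

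Each list of blood or muscle genes gave 1 lower call or none, where 0.441% of all genes passed as lower. The means of the erythroid, neutrophil and muscle fibre lists overlapped between the groups. Of 25 listed erythroid genes 13 were tested and 1 passed, Hbb-b1, a beta-globin gene, at -2.61 (standard error 0.78). It was above background on 3 sham arrays and no surgery array (at least 2.57-fold higher in G-Sham as a bound), and the groups overlapped, with 3.02 in G-Surgery 5 and 2.19 in G-Sham 1. Hba-a1, alpha-globin, was at 2.15 in G-Surgery 1, at 4.60 to 5.14 in the other surgery arrays and at 5.48 to 7.11 in G-Sham. Its groups did not overlap, and at -2.20 it missed the cut-off (adjusted p = 0.354). Globin genes have near copies, and signal of one copy on the probe of another cannot be told apart. In all, 12 of 13 erythroid genes had a negative log2 fold change (median -0.50), and the mean of the list was 2.54 to 4.07 in G-Surgery and 3.58 to 5.07 in G-Sham. In the neutrophil list, which also holds genes of other granulocytes, 1 of 14 tested genes passed, Prg2, the major basic protein of eosinophils, at -2.49 (standard error 0.62), with -0.44 to 2.41 in G-Surgery and 3.26 to 4.42 in G-Sham. It was above background on every sham array and on no surgery array (at least 3.12-fold higher in G-Sham as a bound). The neutrophil protein S100a8 was at -0.26 (standard error 1.76). The median of the list was -0.31. The mean of the neutrophil list was lower in G-Surgery by 1.52 within the first slide and by 0.22 within the second.

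Muscle RNA was abundant in all 8 femora. Myh4, the myosin of fast fibres, had log2 ratios of 11.49 to 11.82 in G-Surgery and 10.67 to 11.76 in G-Sham, and differed by 0.38 (standard error 0.28). Of 24 tested fast fibre genes 1 passed, Actn2, a Z-disc protein, at -4.11 (standard error 1.06). It was at -1.19, -0.89 and -1.20 in G-Surgery 1, 4 and 5 and at 3.59 in G-Surgery 3, within the sham range of 3.32 to 4.94. The list median was -0.58, but its mean ranged from 5.12 to 7.76 in G-Surgery and from 5.52 to 8.67 in G-Sham, and within slides it was lower in G-Surgery by 1.57 on the first and higher by 0.67 on the second. None of 18 tested slow fibre genes passed. Myh7 ranged from 4.74 to 9.79 in G-Surgery and from 5.92 to 10.13 in G-Sham, and Myl3 and Csrp3 were at 0.32 and -0.09. Of 41 tested electron transport genes none passed, and 39 had a negative log2 fold change, with a median of -0.35. This list too turned with the slide, from -0.73 within the first to 0.38 within the second. Without G-Sham 1, 3 genes each of the erythroid, fast fibre and electron transport lists passed as lower, as did 2 each of the neutrophil and muscle regeneration lists. The part of blood and muscle content in the differences of the matrix and macrophage genes was not tested.

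No gene passed in the lists for B cells (10 tested), T and NK cells (9), megakaryocytes and platelets (6), adipocytes (12) or nerve and Schwann cells (8). Their median log2 fold changes lay between -0.06 and 0.45. The adipocyte marker Adipoq was above background on 1 sham array, and Ighm was not matched to a probe.

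**Figure D5:**
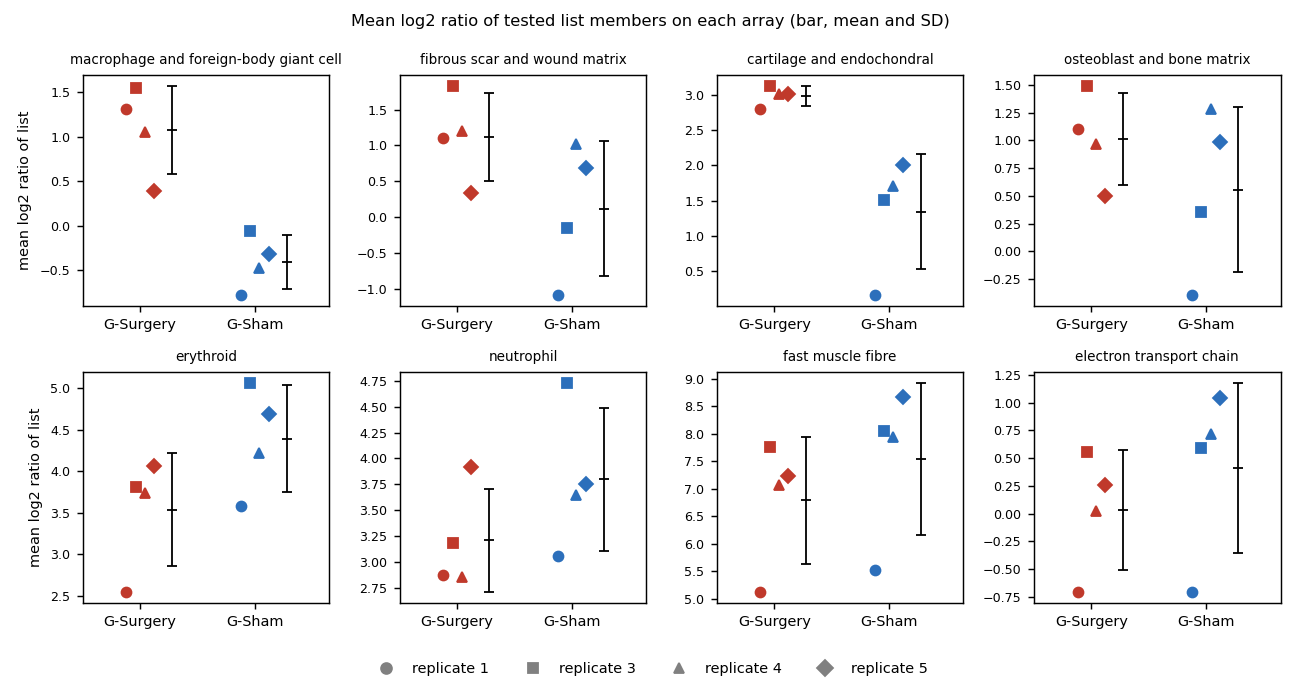
Mean log2 ratio of the tested members of 8 gene lists on each array, by group, with the marker giving the replicate number and the bar the mean and SD of the 4 arrays. Macrophage and cartilage lists do not overlap between groups, while the muscle, electron transport and osteoblast lists do, and replicate 1 of both groups is lowest in the muscle and electron transport lists.

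Taking list means, 20 of the 26 lists were higher in G-Surgery over all arrays, 12 within the first slide and 23 within the second. All 12 lists higher within the first slide were also higher within the second. These were the macrophage, cartilage, fibrous matrix, osteoclast, osteoblast, immediate-early and stromal progenitor lists. The protease and inhibitor, cytokine, vessel and hypoxia, megakaryocyte, and FGF, IGF, PDGF and hedgehog lists made up the rest. The erythroid, neutrophil and B cell lists were lower within both. Cartilage genes were higher by 1.43 on the first slide and 2.05 on the second, and fibrous matrix genes by 1.03 and 2.04. Each slide rests on 3 or 4 arrays, and its values carry no test.

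With slide as a block, 10 of the 12 largest increases without overlap still passed, Pirb and Acod1 being the exceptions, whereas of the 12 such decreases only Tmem135, Trim16, Gstm5 and Agmat did. Of the macrophage genes Trem2 and C1qc still passed. H2-Aa, H2-Ab1, Ibsp, Mitf, Tnfrsf11a, Pdpn, Ptprz1, Adam10, Lrp6, Fgfr1, Tagln, Ccl9, Klf2, Klf6, Cd34, Runx1, Cdk2, Cdkn2a, Hbb-b1 and Prg2 kept their direction but no longer passed, while Col1a1 did, at 1.29. After a further loess Matn4, Mitf, Tnfrsf11a, Cd14, Ctss, Tagln, Runx1, Cdk2, Cdkn2a and Zbtb18 no longer passed. In a fit without G-Sham 1 and 5, chosen after seeing the data, 244 genes passed, 146 as higher and 98 as lower. Of these, 129 were among the 284 of the main fit, where 40 were lower. By list, 3 macrophage, 2 fibrous matrix, 2 cartilage, 2 osteoblast, 2 protease and inhibitor, 2 immediate-early, 2 stromal progenitor, 1 osteoclast, 1 Wnt, 1 vessel and 1 cytokine genes were then higher, and no cell cycle, muscle regeneration or growth factor gene. Lower were 2 fast fibre genes and 1 each of the osteocyte, neutrophil, erythroid and adipocyte lists.

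The same comparison in flight mice was set beside the ground values, with 3 FLT-Surgery and 4 FLT-Sham arrays of mice of the same strain, sex and age. Over the same 9073 genes the median log2 fold change in flight was -0.32, and 687 genes (7.57%) passed the cut-off, of which 45 were higher and 642 lower after surgery. After a further loess this split was 264 and 299. With each flight array left out in turn this count ranged from 199 to 2135, highest without FLT-Sham 8. Of the 244 genes higher on the ground 4 were also higher in flight (1.64%), where 45 of all 9073 were, and 1 was lower. These 4 were 8.89% of the genes higher in flight, against 2.69% of all genes higher on the ground. Of the 40 lower on the ground 8 were also lower in flight (20%), where 642 of all 9073 were, and none was higher. These 8 were 1.25% of the genes lower in flight, against 0.441% of all genes lower on the ground. Trem2 was higher in both, with 3.58 on the ground and 2.61 in flight, or 2.91 without FLT-Sham 8. Ccl4 was at 4.44 and 3.55, or 4.13 without that array. Ms4a7 was at 5.49 and 1.78, and Col15a1 at 4.60 and 1.78. Col2a1 was at 6.03 and -1.24, H2-Aa at 2.30 and -0.46, and Ibsp at 3.098 and 0.04. The difference of the surgery effect between ground and flight, as an interaction over all 15 arrays, passed the same cut-off for 683 genes (7.53%; 263 to 1982 with each array left out), but none reached an adjusted p of 0.05 in limma, with 2407 at an unadjusted p of at most 0.05. This count changed with single arrays left out: 1554 genes reached it without FLT-Sham 8, 591 without FLT-Surgery 1 and 3 without G-Surgery 5. With all 15 arrays the smallest adjusted p was that of H2-DMb1, 0.0887, with 4.01 on the ground and -0.60 in flight. The globin genes Hbb-b1 and Hba-a1 were at -2.61 and -2.20 on the ground and at -5.55 and -3.25 in flight.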

How the data were processed

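The authors hybridised amplified RNA of femoral tissue (Cy5) with a reference RNA (Cy3) to Agilent 2-colour arrays without a dye swap. Agilent Feature Extraction (version 12.0 per the submitters' processing notes) subtracted background and normalised the dyes by a linear and lowess method, and the deposited log10 ratio of each spot (LogRatio) was divided by log10 of 2. The deposited intensity values of both channels served only for bounds, for choosing the brightest probe of a gene and for alternatives. The deposited series value table holds the same log10 ratios to within 0.005 on every array and was an alternative. The study describes the bone RNA as of sub-optimal quality, and no integrity value was used here.

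Control spots were left out, outlier spots were set to missing and spots of one probe were averaged. Of 55681 probes 28026 were matched by accession to a RefSeq symbol (21154 symbols, GRCm38.p6 table, names only). Groups were fitted with limma 3.58.1 in R 4.3.3 (lmFit and eBayes), over all probes tested, with Benjamini-Hochberg adjustment, and every adjusted p comes from limma. The ground comparison had 4 against 4 arrays, flight 3 against 4 and the interaction all 15, and their number limits the precision. Tests were checked on simulated data. The methods of the study give a cut-off of a fold of 2 with p of at most 0.01, which was used.

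Named were the 12 largest differences in each direction without overlap among genes past the cut-off, list genes past the cut-off (otherwise up to 4 with the smallest p) and 40 set genes. Members and lists were chosen with earlier results of these data known. Collagens, class II genes and other genes short of the cut-off were chosen after their values were seen. The share of the sum of squares used an exact permutation test of the upper tail. Alternatives were other scalings, filters, weights, blocks and each array left out. The normexp alternative used median signals, since mean signals were not used here.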

Additional observations from a re-analysis of the deposited data

Results flagged for a closer look

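In groups of 4 arrays, a value was picked out where its gap to the nearest other array, as a share of the range of the group, was over the critical value of Dixon's test. Of 262 groups examined 9 were picked out, against 13.1 that chance would give at 1 in 20. G-Sham 1 was low for Adam10 at -5.62 (others -3.32 to -3.06), Cxcl12 at -3.96 (others -1.40 to -1.27), Lyz1 at -3.85 (others -0.25 to -0.14) and the mean of the stromal progenitor list at -0.19 (others 0.38 to 0.48). Actn2 stood high in G-Surgery 3 at 3.59, where the other surgery arrays lay between -1.20 and -0.89. Laptm5 was low in G-Surgery 5 at -0.17 (others 1.55 to 1.82). Among the sham arrays, Col1a1 was high in G-Sham 4 at 2.61 (others 1.37 to 1.41), Bcl2a1d in G-Sham 5 at -1.95 (others -3.54 to -3.34) and Oxct2b in G-Sham 3 at 6.12 (others 5.58 to 5.63).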

How the results depend on the processing

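The 284 genes past the cut-off became 104 after normexp, 184 and 179 where both channels or Cy5 had to be above background on all 8 arrays, 132 with slide as a block and 2 at an adjusted p of 0.05, and 159 to 424 with each array left out. Those 2 genes became 0 after normexp, with Cy5 alone, without the filter on dim probes and with slide or replicate number as a block. The count was 1 after a further loess, 9 with all 15 arrays in the fit and 0 to 25 with each array left out. The replicate numbers did not pair the samples, as deviations of same-numbered arrays correlated by 0.35, -0.05, -0.07 and -0.16, and with the number as a block 236 genes passed. The share of the sum of squares was 20.1% to 31.0% with each array left out, and passed 0.05 only without G-Sham 1. In flight 199 to 2135 genes passed with each array left out, and for the difference between ground and flight 263 to 1982, or 408 after a further loess. Within the first slide 12 lists, not 20, had a higher mean in G-Surgery. Of the 102 genes examined, 85 kept direction and call after a further loess, 63 with slide as a block and all 102 with the series table. Values that changed sign were all short of the cut-off. Tgfb1 was at -0.20 after loess, -0.0912 after median centring and -0.0933 with slide as a block, and Cxcl12 at -0.14, -0.21, -0.16 and -0.39 after loess, median centring, normexp and array weights. Col4a4 was at -0.21, -0.12, -0.0313 and -0.0607 after loess, median centring, normexp and with Cy5 alone, where Col6a1 was at 0.18 and Myh4 at -0.35. Acta2 was at -0.0527 after median centring, Tyrobp at -0.0321 and Csrp3 at 0.0843 after normexp, and Csrp3 at 0.56 with array weights. With slide as a block Alpl was at 0.37, Myh7 at 0.28 and S100a8 at 0.0603. With each array left out Bglap ranged from -0.93 to 0.0279, Col4a4 from -0.0326 to 0.16, Csrp3 from -1.22 to 0.82, Cxcl12 from -0.66 to 0.24, Myh7 from -1.35 to 0.49, Myl3 from -0.18 to 0.84, Runx2 from -0.57 to 0.11, S100a8 from -2.27 to 0.76, Tgfb1 from -0.0199 to 0.38 and Tyrobp from -0.0353 to 0.59. The cause of these changes was not tested. Genes at background on every array of a group, 56 of the 284, have only a bound.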

Other observations

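Probes without a symbol were tested as well. Of 7054 such probes 96 passed as higher in G-Surgery and 43 as lower. They are not named here. A second cartilage collagen differed from Col2a1 in the mouse that carried it. Col9a1, a chain of the type IX collagen that coats type II fibrils, was at 8.78 in G-Surgery 5 and between -0.14 and 2.90 in the other surgery arrays, against -0.01 to 2.23 in G-Sham, whereas Col2a1 was highest in G-Surgery 4. Its log2 fold change of 2.24 (standard error 1.73) did not pass. This gene was chosen after its values were seen.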
